A study of Caenorhabditis elegans with 4 samples.

Results

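LSY-2 regions of the centre and right arm of chromosome III are the entries of the combined peak list on III whose midpoint lies above base 3700000. The list held 557 of them out of 3669 entries, or 15.2%, on a stretch of 10.1 Mb that makes up 10.1% of the span of the 6 nuclear chromosomes. The members were chosen by measured position, the midpoint of each called region, within a list made from the ChIP samples, so their number, their crowding on III and their presence in the samples are given as a description and no test is attached to them. The 3 entries just inside the bound, starting at 3701548, 3703348 and 3704946, had ranks 2835, 2697 and 1185. The 3 just outside it, starting at 3650683, 3664357 and 3677398, had ranks 1952, 660 and 2292. The last entry of the chromosome was III 13779240 to 13779609, at rank 1839. Positions refer to build WS220 of the worm genome. Gene models of WS220 were not used, so no entry is assigned to a gene, exon or intron.

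The study mapped where LSY-2 binds DNA in embryos of Caenorhabditis elegans by chromatin immunoprecipitation and sequencing (ChIP-seq). The strain, OP367, carries the allele unc-119(ed3) and the transgene wgIs367, which was introduced by bombardment. The transgene holds lsy-2 joined to a TY1 EGFP FLAG tag together with unc-119 as a marker gene. All samples shared this strain, a mixed population of males and hermaphrodites at 20 °C, and fixation in 2% formaldehyde. There were 2 ChIP samples, precipitated with antibodies against GFP, and 2 input samples, whose values were not analysed here. The labels do not say whether the ChIP samples came from separate cultures. No untagged strain was analysed here, and in the gene table used, of assembly WBcel235, unc-119 is on chromosome III. Where unc-119 lies in WS220, and any part that extra copies of it play in peaks on III, was not tested.

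LSY-2 is a zinc finger protein of the nucleus. It is known for its role in the left and right ASE taste neurons, where the left cell's identity depends on the microRNA lsy-6, which needs LSY-2 to be expressed. In this worm the centres of the autosomes are rich in essential and broadly expressed genes and recombine little, while the arms recombine more and hold more repeats. The worm is sampled whole, so a peak can come from any cell of the embryo that carries the fusion protein.

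Of the 20 strongest entries of the list 6 lay on the stretch, which is 1.08% of its entries against 0.545% of all entries. Of the 100 strongest 24 did, or 4.31% of its entries. The rest of III, with fewer entries, had 4 of them (1.42%), and the background over all entries was 2.73%. The authors' score ties at its maximum of 3.80 in 481 of the 557 entries (86.4%, against 85.8% of the whole list), so the number in each entry's name was read as a rank, 1 being the strongest. No source states that reading. The median rank was 1604 on the stretch, 2354 on the rest of III and 1819.5 on the other chromosomes, and 1835 over the whole list. The first 500 ranks held 92 entries of the stretch, which is 16.5% of its entries (exact Clopper-Pearson 95% interval 13.5% to 19.9%), against 8.51% on the rest of III (5.53% to 12.4%) and a background of 13.6% over all entries. The interval includes the background. On chromosomes I and II the share was 15.2% each, and on X it was 7.75%. These intervals cover counting of entries only. Per Mb the stretch had 9.13 entries of the first 500 ranks and the rest of III 6.49. Chromosome I had 7.51 and II had 6.35, while the other chromosomes together had 4.44, X included at 1.86.

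The share of the list that the stretch takes declined with rank. It was 24% of ranks 1 to 100, 17% of ranks 101 to 500, 18% of ranks 501 to 1000, 15.6% of ranks 1001 to 2000 and 13.1% of the ranks after that. The lists of the single samples also gave it a smaller share at lower ranks. The combined list was made from the same samples, so this likeness is in part built in. In replicate 1 the stretch held 91 of the first 500 peaks (18.2%), 173 of the first 1000 (17.3%), 1389 of the first 10000 (13.9%) and 1169 of the lowest 10000 (11.7%). In replicate 2 it held 95 of the first 500 (19%), 175 of the first 1000 (17.5%), 1441 of the first 10000 (14.4%) and 1256 of the lowest 10000 (12.6%). Even the lowest ranks stood above the 10.1% of the span. The rest of III, with 3.69% of the span, held 5% of the first 500 peaks of replicate 1 and 4.8% of those of replicate 2. Its share was higher in the first 10000, at 7.09% and 7.1%. In the lowest 10000 it was 5.06% and 5.18%. The stretch thus took its largest share at the top of both lists, and the rest of III took a larger share of the first 10000 than of the first 500.

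The strongest entry of the stretch was III 3867253 to 3867819, rank 2 of the whole combined list. Replicate 1 placed it first of its 30000 peaks and replicate 2 second, with midpoints 2.5 bp apart. III 4475350 to 4475868 followed at rank 3, with ranks of 3 and 4 in replicates 1 and 2 and midpoints 10.5 bp apart. III 12904824 to 12905352, on the right arm, stood at rank 4, with ranks of 4 and 3 in the replicates. The samples therefore put the same 3 regions of III within their first 4 peaks. III 6971803 to 6972292 had rank 10 in the list and ranks of 12 and 10 in replicates 1 and 2, whose peaks had the same midpoint. III 7207812 to 7208308, rank 17, had replicate ranks of 15 and 19, and III 13462778 to 13463251, rank 18, had 24 and 12. All 6 were in the first 24 peaks of both samples.

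The 25 strongest entries ran from rank 2 to rank 101. None of their peaks ranked below 113 in replicate 1 or below 99 in replicate 2. Replicate 1 ranked 11 of them better than replicate 2 did, and replicate 2 ranked 14 better. Those after the first 6 were, in rank order, the entries starting at III 9765255, 10218461, 9545839, 8085245, 8903979, 12978669, 12429584, 8130237, 6961091, 6374888, 8163771, 4150797, 12598324, 5442742, 10642671, 4019822, 6341970, 9455985 and 8358123. The largest ratio of ranks among them was at III 9765255 to 9765767, at 17 in replicate 1 and 37 in replicate 2. All 25 had the maximum score in the 3 lists. That score was shared by 3149 entries of the combined list, 1901 peaks of replicate 1 and 3814 of replicate 2. It therefore does not set these entries apart. Of the 25, 20 lay left of 10.7 Mb and 5 to the right of it, a split near that of all entries, of which 420 of 557 lay to the left. Another entry within 1 kb was found for 3 of the 25, and their median distance to the nearest entry was 3.32 kb. Such a neighbour was found for 16.2% of all entries of the stretch and 16.7% of the whole list. Over the list it was found for 14% of ranks 1 to 100, so the strongest entries of the stretch were not set apart by this.

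Strong regions were broad, those next in order were narrow, and weak ones had a fixed width. All 24 entries of ranks 1 to 100 were wider than 370 bp, with a median of 464.5 bp and a range of 394 to 657 bp. Of the 68 entries of ranks 101 to 500, 52 were narrower than 370 bp and the median was 282 bp. At ranks 501 to 1000 the median was 184 bp, and 68 of 90 entries were narrower than 370 bp. From rank 1001 to 2000, 134 of 156 had exactly 370 bp, and after rank 2000, 216 of 219 did. The whole list had the same course, with medians of 463, 279.5, 182, 370 and 370 bp in the same classes. The share at 370 bp was 67.0% on the stretch, against 80.1% on the rest of III and 71.1% over the list. The narrowest entries measured 92 bp. There were 7 of these, between ranks 784 and 1413, and the best ranked was III 4649377 to 4649468, where both replicate peaks had the usual width of their lists, 380 and 356 bp. A width in this list is therefore no plain measure of the size of a bound region.

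**Figure D1:**
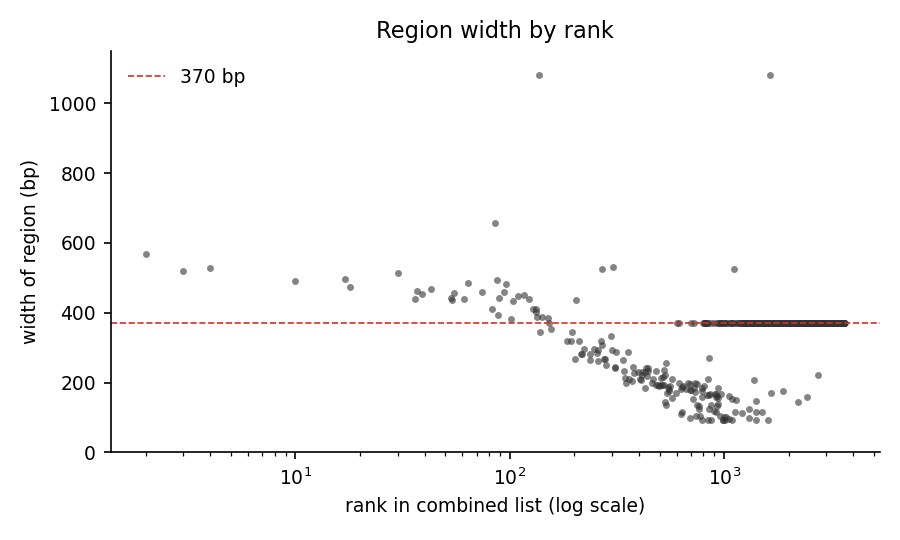
Width in bp of each of the 557 entries (points, vertical axis) against its rank in the combined list (horizontal axis, log scale), with a dashed line at 370 bp. Widths decline with rank from 567 bp at rank 2 to 92 bp near rank 1000, after which most entries lie on the line; both points at 1082 bp are 1 interval listed 2 times.

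Among the 557 entries there were 555 distinct intervals, since 2 intervals were each listed 2 times under different numbers. III 8416832 to 8417913, 1082 bp wide, appeared at ranks 137 and 1642. Each replicate had 2 peaks inside it. In replicate 1 they were 8417394 to 8417891 at rank 137 and 8416881 to 8417110 at rank 1178, which do not touch. In replicate 2 they were 8417142 to 8417887 at rank 132 and 8416900 to 8417083 at rank 2517, again apart. The second interval, III 13070410 to 13070933, appeared at ranks 268 and 1110. Replicate 1 had peaks of ranks 267 and 922 there, 13070440 to 13070681 and 13070684 to 13070860, and replicate 2 had peaks of ranks 275 and 4196. In both cases a strong and a weaker peak side by side were thus covered by 1 interval with 2 numbers. The whole list had 7 intervals entered more than once, not all with separate peaks inside, and the rest of III had 0 of them. Counted once each, 16.6% of the distinct entries of the stretch were in the first 500 ranks.

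Nearly every entry had a peak in both samples. Overlap of at least 1 bp was found for 553 of 557 entries, or 99.3% (exact 95% interval 98.2% to 99.8%), against 99.2% of the whole list. The share is near the background, and the list was made by a procedure that keeps recurring peaks, so it says nothing particular about the stretch. Of the 4 others, 3 had a peak in replicate 2 alone. These were III 7861445 to 7861814, with replicate 2 rank 1473, III 9125805 to 9126174, with rank 1047, and III 13464489 to 13464858, with rank 3561. The last of these lies 1237 bp from the strong entry of rank 18. III 10739826 to 10740195 had a peak in replicate 1 alone, at rank 1269. Their ranks in the combined list were 3266, 2529, 3467 and 2831, all in its lower part.

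Ranks in the 2 samples followed each other closely at the top of the combined list and loosely below it. That list was made from the same samples. Its rank had a rho of 0.893 with the rank in replicate 1 and 0.901 with that in replicate 2 on the stretch. Agreement of the replicates at its top is therefore in part built in. Across the 553 entries found in both, Spearman's rho of the ranks was 0.728, against 0.493 on the rest of III and 0.662 over the whole list. These values are descriptions across regions of 2 libraries, and 10 close pairs of entries share their best peak. The 2 ranks were within 2-fold of each other for 417 entries (75.4%, against 63.9% on the rest of III and 72.2% of the list), within 5-fold for 529 and within 10-fold for 550. Replicate 1 gave the better rank to 269 entries and replicate 2 to 283. Both ranks were within 3669, the length of the combined list, for 397 entries (71.3%, exact 95% interval 67.3% to 75.0%), against 58.5% on the rest of III (52.5% to 64.3%) and 68.6% over the list. By rank class this held for all 182 entries of the first 1000 ranks, for 147 of 156 at ranks 1001 to 2000 (94.2%, against 95% of that class over the list) and for 68 of 219 after that (31.1%, against 34.2%). Within these last classes the stretch was thus not above the list.

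**Figure D2:**
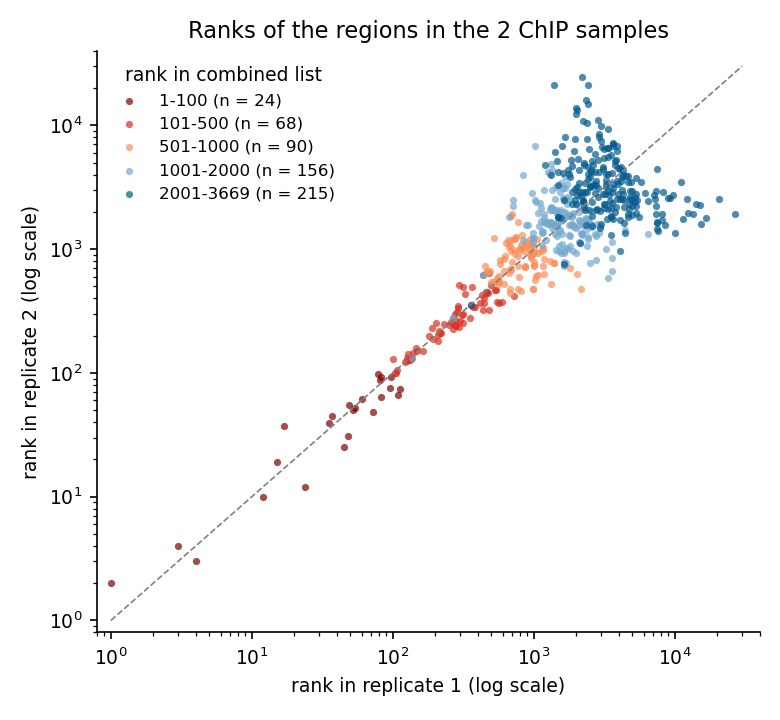
Rank of the best overlapping peak in replicate 2 (vertical axis, log scale) against replicate 1 (horizontal axis, log scale) for the 553 entries of the stretch found in both, coloured by rank in the combined list, with a dashed line of equal ranks. Points of the first 500 ranks hug the line, while those after rank 2000 spread to ranks of 26567 in replicate 1 and 24428 in replicate 2; a few pale blue points among the strong ones are entries that share the peak of a stronger neighbour.

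A few entries had ranks far apart in the 2 samples. The largest ratio was at III 10628266 to 10628635, rank 1392 in replicate 1 and 21314 in replicate 2, a ratio of 15.3. III 10384764 to 10385133 had ranks of 2191 and 24428, and III 5853142 to 5853511 had 2423 and 21323. The other 2 of the 5 largest ratios in this direction, starting at 5668096 and 13377097, had ratios of 6.92 and 6.76. In the other direction III 9228138 to 9228507 had rank 26567 in replicate 1 and 1906 in replicate 2, a ratio of 13.9. III 11371159 to 11371528 had ranks of 15225 and 1588, and III 7165229 to 7165598 had 16671 and 1788. The entries starting at 8798242 and 8125295 had ratios of 8.18 and 7.45. None of these 10 had a combined rank better than 2300, and in 9 of them the midpoints of the replicate peaks were at most 69 bp apart; the exception was the first, at 172 bp.

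The samples also placed strong regions at nearly the same base. The midpoint of the best overlapping peak lay a median of 16 bp from the entry's midpoint in replicate 1 and 12 bp in replicate 2. Between the replicates the median distance was 26 bp on the stretch, against 42 bp on the rest of III and 30 bp over the list. It was 10.5 bp at ranks 1 to 100, where no pair of midpoints was more than 27 bp apart, and 10.25 bp at ranks 101 to 500. It then went to 20.75, 28.5 and 48 bp in the 3 classes that follow. Over the whole list the medians of the same 5 classes were 7, 10.5, 21, 30 and 52 bp, so at ranks 1 to 100 the stretch was the looser. At ranks 2001 to 3669 the farthest pair was 364 bp apart. With an overlap of at least 50% of both intervals required, 458 entries (82.2%, against 83.4% of the list) had a peak in both samples. Of the 95 that passed at 1 bp and failed at 50%, 82 were narrower than 370 bp, so most failed beside a replicate peak of the wider standard width. By midpoints within 100 bp, 512 entries (91.9%, against 91.3% of the list) were in both.

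**Figure D3:**
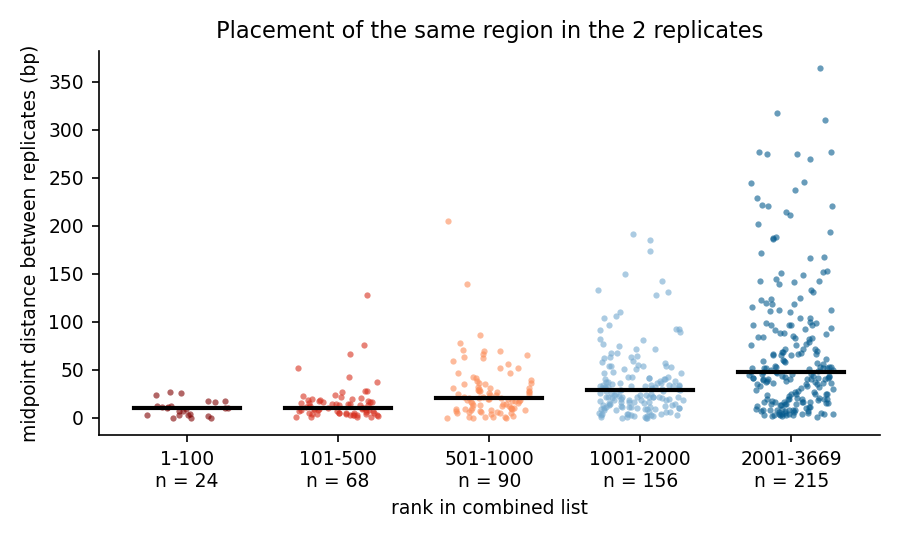
Distance in bp between the midpoints of the best overlapping peaks of the 2 replicates (vertical axis) for entries of the stretch in 5 classes of combined rank (horizontal axis); each point is 1 entry and each bar is a median. The medians are 10.5, 10.25, 20.75, 28.5 and 48 bp, and the highest points go with the last class.

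Along the stretch, entries were on average denser in the centre than on the right, though not in every bin. In 10 bins of 1 Mb counted from 3.7 Mb the number ranged from 39 to 79, with a median of 52. The fullest bin was 7.7 to 8.7 Mb with 79 entries, where replicate 1 had 72 and replicate 2 had 78 peaks within its first 3669 ranks. The next was 3.7 to 4.7 Mb with 69 entries, against 74 and 69 peaks in the replicates. The emptiest was 11.7 to 12.7 Mb with 39, against 47 and 44 peaks. In the 7 bins up to 10.7 Mb there were 60 entries per Mb, and beyond them 44.5 per Mb. Some bins up to 10.7 Mb were as sparse as those beyond. The bin at 5.7 to 6.7 Mb held 44 entries and that at 9.7 to 10.7 Mb held 49. The full bins beyond held 48, 39 and 44. The first ranks of replicate 1 gave 60.9 per Mb up to 10.7 Mb and 43.5 beyond, and those of replicate 2 gave 60 and 44.8. The point 10.7 Mb is an edge of the bins and not a boundary taken from the files. With peaks of any rank counted, replicate 1 had 438 at 3.7 to 4.7 Mb, 437 at 10.7 to 11.7 Mb and 433 at 7.7 to 8.7 Mb. Its fewest, 265, were at 6.7 to 7.7 Mb. In replicate 2 these bins had 434, 442, 383 and 273, and 442 was its most. The 1 Mb bins beyond 10.7 Mb had 391 to 437 such peaks in replicate 1 and 419 to 442 in replicate 2. The bins up to 10.7 Mb had 265 to 438 and 273 to 434. The lower mean density on the right thus held for entries and first ranks and was not seen in peaks of any rank.

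**Figure D4:**
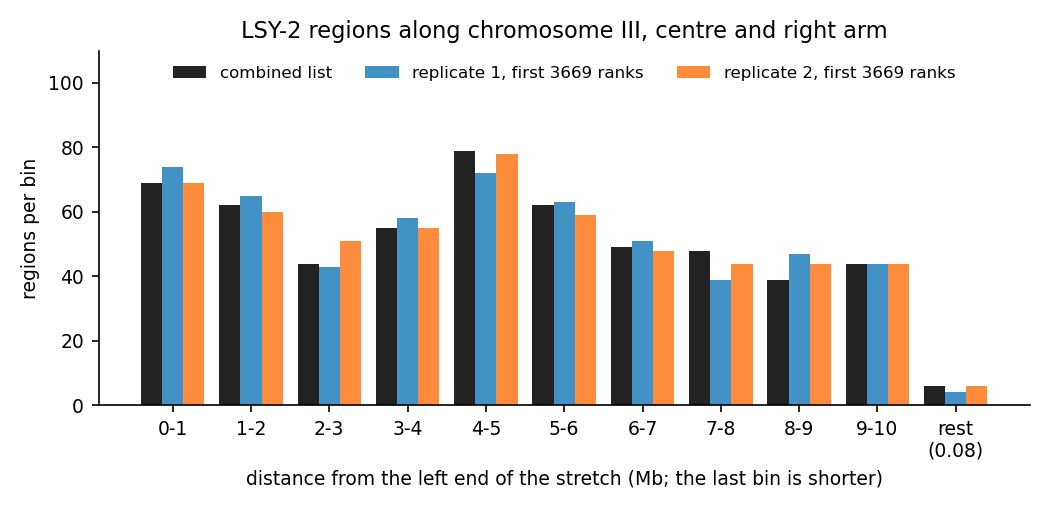
Number of LSY-2 regions (vertical axis) in bins of 1 Mb by distance from the left end of the stretch in Mb (horizontal axis), for the combined list and for the first 3669 ranks of each replicate. The 3 bars of a bin stand close together, the fullest bin is the fifth with 79, 72 and 78, and bins from the seventh to the tenth hold between 39 and 51; the last bin, 0.08 Mb long, holds 6, 4 and 6.

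Strong regions were spread through the same bins. Each of the 10 held between 6 and 15 entries of the first 500 ranks, with 15 at 7.7 to 8.7 Mb and 12 at 6.7 to 7.7 Mb. Up to 10.7 Mb, 73 of 420 entries (17.4%) were of these ranks, and beyond it 19 of 137 (13.9%). Neighbours among the 92 were a median of 62.0 kb apart, and 8 neighbouring pairs stood within 10 kb. The closest pair was III 6341970 to 6342428, rank 94, and III 6344639 to 6345087, rank 109, with 2.21 kb between them. Next were III 4754193 to 4754477, rank 256, and III 4756991 to 4757285, rank 223, with 2.51 kb between them. The strongest entry of the stretch had III 3862923 to 3863216, rank 258, 4.04 kb to its left. The longest run without an entry of the first 500 ranks was 787 kb, between III 11035984 to 11036394, rank 128, and III 11823203 to 11823642, rank 123, and it held 26 weaker entries.

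Entries of the stretch stood farther apart than those of the rest of III and closer together than those of the other chromosomes pooled. The median distance between neighbours, edge to edge, was 10.5 kb, against 4.27 kb on the rest of III and 14.9 kb on the other chromosomes. The pooled chromosomes differed. Entries per Mb were 49.3 on I, 41.9 on II, 32.9 on IV, 21.4 on V and 24.1 on X, against 55.3 on the stretch. These are whole chromosomes with their arms, and no centre of another chromosome was set apart. A neighbour within 1 kb was found for 90 entries (16.2%, exact 95% interval 13.2% to 19.5%), against 32.6% on the rest of III (27.2% to 38.4%) and 16.7% over the list. Of the 46 close pairs, 10 overlapped, of which 2 are the repeated intervals. In the other 8 the midpoints were 178.5 to 248 bp apart, and in all 10 both entries had the same best peak in each replicate. In the 36 pairs without overlap the entries did not share their best peak, and 1 of these entries, III 9125805 to 9126174, had no peak in replicate 1. In 0 of the 46 pairs were both entries within the first 500 ranks. In 16 pairs 1 of them was, such as III 9765255 to 9765767, rank 30, whose neighbour of rank 701 was 425 bp away.

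**Figure D5:**
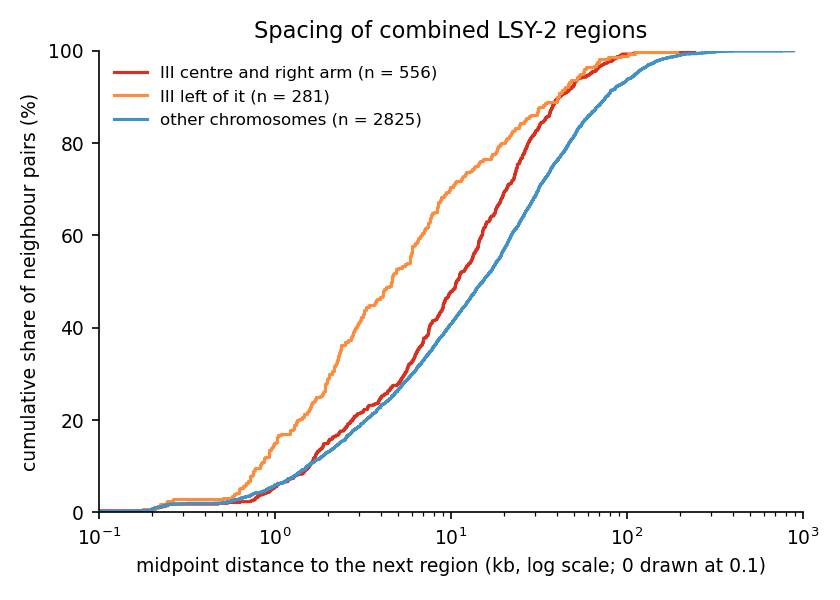
Cumulative share of neighbouring pairs (vertical axis, %) by the distance between their midpoints in kb (horizontal axis, log scale) for combined regions of the centre and right arm of III, of the rest of III to its left, and of the other chromosomes. The curve of the stretch crosses 50% at 10.8 kb, that of the rest of III at 4.64 kb and that of the other chromosomes at 15.2 kb.

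No window of 50 kb held 10 or more entries of the stretch, whereas 6 of 74 windows on the rest of III did, up to 23 entries. Windows on the other chromosomes were not counted, so this compares parts of III only. Over the 202 windows of the stretch the mean was 2.76, 25 windows were empty and 34 held 5 or more. The fullest was III 7150001 to 7200000 with 9 entries. Replicate 1 had 7 and replicate 2 had 9 peaks there within their first 3669 ranks. Its entries began at 7153904, 7155742, 7162302, 7165229, 7179650, 7181714, 7183956, 7189785 and 7198892. Ranks ran from 265 to 2818 with a median of 730, and 3 were in the first 500, so this window was both crowded and strong. III 7750001 to 7800000 had 8 entries, ranks 196 to 2195 with a median of 850, and again 3 in the first 500. Its 8 entries lay between 7766038 and 7792438. III 8100001 to 8150000 also had 8, but their median rank was 2045 and 1 of them, III 8130237 to 8130693 at rank 55, was in the first 500. Crowding and strength thus did not go together in the same way in the 3 windows.

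Only the longest stretches without an entry are named here. The longest was III 6625641 to 6869275, 243.6 kb, between entries of ranks 1716 and 1404. Replicate 1 listed 46 peaks in it and replicate 2 listed 44. Within the first 3669 ranks there were 1 in replicate 1, at rank 3643, and 2 in replicate 2, the better at rank 981. The next was III 9230235 to 9393265, 163.0 kb, with best ranks of 3023 in replicate 1 and 5103 in replicate 2. III 11946521 to 12058332, III 12711462 to 12821225 and III 11142303 to 11236785 were 111.8, 109.8 and 94.5 kb long, and the best peak in them had rank 3118, 3788 and 3384. The replicates thus had weak peaks in these stretches, and 1 peak of replicate 2 within the first 1000 ranks.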

How the data were processed

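Peak lists of the 2 LSY-2 GFP ChIP samples and 1 combined list were used, grouped by sample titles. The authors deposited each peak with a position and a score. Per the file headers, the lists come from SPP followed by IDR, a procedure that keeps peaks recurring between replicates, in build WS220. The aligner, versions, thresholds, any pooling and the scale of the score have no statement in the sources used here. Depth per sample is unknown. Each replicate list has 30000 peaks, so its lower ranks can hold background.

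Each entry was matched to the best ranked replicate peak overlapping it by at least 1 bp. A region that touched the bound was placed by its midpoint. A chromosome's span is the distance between the outermost bases that the lists cover on it. Shares have exact Clopper-Pearson 95% intervals. No test was made, since the 2 ChIP samples form 1 group. Matching, merging and spacing were tested on simulated lists of regions all 370 bp wide. Those lists held no overlapping or repeated entries, so such cases were not tested. The members and the rule naming regions (the 25 strongest and the extremes of recurrence, crowding and spacing) were chosen with earlier results of these data known. Close strong pairs, repeated intervals and the narrowest entry were named after their values were seen. Software was scipy 1.17.1, pandas 2.3.3 and numpy 2.4.6 under Python 3.11.15, with plots by matplotlib 3.10.9. Genes, sequence and input values were not analysed here.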

Additional observations from a re-analysis of the deposited data

How the results depend on the processing

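Of 41 recomputed values, 27 stayed within 1.5 times the count or within the 95% interval of the value reported, and 14 moved beyond it. Whether a direction reversed was not assessed. Counting repeated intervals once was chosen after seeing the data. The better 50% of the combined list left 309 entries on the stretch, 16.8% of those kept, and 19 with a neighbour within 1 kb, where the list is shorter. The median distance was 21.8 kb in the better 50% of the members, which are fewer. With other limits, 40 entries had a neighbour within 500 bp and 174 within 2 kb, and 34 windows held 5 or more. The share in both samples was 82.2% at a reciprocal overlap of 50%, 91.9% by midpoints within 100 bp, 97.7% in the better 50% of each replicate list and 71.3% in their first 3669 ranks, stricter criteria in each case. In single replicates it was 99.5% to 99.8%. The share at 370 bp was 36.2% in the better 50% of the members and 1.09% in the first 500 ranks. No paired analysis was possible because values of the input samples were not used here. Settings that need a genome were not run, and how far depth limits the weaker entries cannot be given.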

Other observations

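Some pairs of replicate peaks on the stretch recurred and were still outside the combined list. There were 1207 such pairs, each the other's best overlapping peak. The median distance between replicate midpoints was 26 bp for entries of the list and 141 bp for these pairs. Both ranks were within 3669 for 397 entries of the list and for 7 of the pairs, and within 1000 for 0 of the pairs. The list was made by a procedure that keeps recurring peaks, so these contrasts with the pairs it left out follow in part from how it was made. How many of the 1207 pairs overlap by chance was not tested. The best ranked pair was III 4720802 to 4721181, rank 1132 in replicate 1, with 4720803 to 4721158, rank 618 in replicate 2. Its midpoints were 11 bp apart and the nearest entry was 0.636 kb away. The next 4 by mean rank began in replicate 1 at III 7087880, with ranks of 2751 and 1671, III 11921577, with 2241 and 2421, III 6247974, with 3468 and 1393, and III 8265641, with 1844 and 3291.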
